A study of Gallus gallus with 6 samples.

Results

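The let-7 family was taken as every sequence in the deposited miRNA table named let-7 with a letter from a to k, of either hairpin arm and of any species name. It held 25 of 1151 distinct sequences (30 of 1302 lines of the table), 15 of the 5p arm and 10 of the 3p arm. Chicken names (gga) were carried by 14 of them, and 11 names came from other species. Small RNA was sequenced from 6 testes of Cobb500 breeder cocks, a broiler breeder line, at 40 weeks of age. The 3 A libraries came from birds fed a corn soybean diet with 10 g of Astragalus polysaccharide (APS) added per kg. The 3 C libraries came from birds fed the corn soybean diet without it. The libraries of a diet came from left testes of different birds, and the labels and the study's methods differ in how many birds were raised. The let-7 miRNAs were compared to learn whether the dietary supplement changed their level in the testis.

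let-7 is among the most conserved of animal miRNA families. Its members come from several hairpins whose 5p arms share one seed, the stretch next to the 5′ end that pairs with target mRNAs, so they are expected to recognise overlapping sets of targets. The RNA-binding protein LIN28 blocks the maturation of let-7 in stem and early germ cells, and mature let-7 accumulates as cells differentiate. The 5p strand is usually the one kept by Argonaute, and the 3p strand is usually the discarded passenger.

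The 5 sequences that held 98.2% of all let-7 counts are shown because the family level rested on them. Capitals mark the seed, bases 2 to 8 from the 5′ end, as read in the deposited table.
gga-let-7a-5p: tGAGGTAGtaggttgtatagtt
gga-let-7f-5p: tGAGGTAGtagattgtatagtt
gga-let-7a-5p_2ss12GT18TC: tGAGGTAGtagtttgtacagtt
gga-let-7c-5p: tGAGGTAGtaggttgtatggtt
gga-let-7i_R+1: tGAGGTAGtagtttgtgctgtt

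Counting from 1 at the 5′ end of gga-let-7a-5p, gga-let-7f-5p differed from it by G12A and gga-let-7c-5p by A19G. gga-let-7i_R+1 differed by G12T, A17G, T18C and A19T. All of these changes lay outside the seed. In the names, a suffix such as 2ss12GT18TC gives substitutions against the database entry, and R+1 or L+1 gives a base added at the 3′ or 5′ end. GAGGTAG stood at bases 2 to 8 of 13 of the 15 5p sequences, which held 99.99% of the 5p counts. Names without an arm ending, such as gga-let-7i_R+1, were placed in the 5p arm by this seed, so they carry it by definition.

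The names did not always give the letter that the sequence matched. The database sequences of 11 chicken let-7 strands could be rebuilt from the names in the table, and 11 of the 25 sequences matched one of them without a mismatch. Of these 11, 3 were named for another letter, and they held 14.1% of the 5p counts. gga-let-7a-5p_2ss12GT18TC, with 60810 counts over the 6 libraries, equalled the rebuilt let-7g-5p with 1 base added at its 3′ end. The name gga-let-7g-5p itself was carried only by a sequence with 0.154 counts. Why some values stay below a whole read after lines of one sequence are summed, and which end variants each line pools, is stated neither in the labels nor in the methods, so the proportions of forms given below are those of the table's lines. mmu-let-7j_1ss8TG matched the rebuilt let-7i with 3 bases added at its 3′ end. mml-let-7a-5p_L+1R+1_1ss13GA matched let-7f with 1 base added at each end.

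A pair of less abundant 5p sequences matched no chicken strand that could be rebuilt. No let-7d strand, and no 5p strand of let-7j or let-7k, could be rebuilt. Whether either sequence is one of those was not tested. Here capitals mark the bases that differ from let-7a-5p for the first (A10C and A19T) and from let-7f-5p, the nearest strand, for the second (T16A). The first was equally near to let-7c-5p, from which it differed by A10C and G19T.
csa-let-7d_1ss10TC: tgaggtagtCggttgtatTgtt
aca-let-7e-5p_R+1: tgaggtagtagattgAatagttt

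The 3p strands did not share a seed. They are shown to give the seed of each 3p strand described later, again in capitals.
gga-let-7k-3p_1ss22CT: cTATACAAtctactgtctttct
gga-let-7k-3p: cTATACAAtctactgtctttcc
gga-let-7j-3p: cTATACAGtctattgccttcct
tgu-let-7i-3p: cTGCGCAAgctactgccttgct
gga-let-7g-3p_1ss22CT: cTGTACAGgccactgccttgct
gga-let-7c-3p_1ss12TC: cTGTACAAcctcctagctttcc

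TATACAA was the seed of 4 of the 10 3p sequences with 1402 counts, and TATACAG of 2 with 455 counts. TGCGCAA was carried by tgu-let-7i-3p with 456 counts. The 3 chicken 3p names with a changed last base (let-7k, let-7g and let-7f) carried C22T, a T in place of C at the last base of the database entry. The sequence named gga-let-7f-3p_1ss22CT was equally near to let-7j-3p. For let-7k-3p both forms were counted, and the form with C22T made up 74.7%, 78.0% and 76.8% of them in A libraries, against 75.5%, 74.1% and 77.4% in C libraries. The proportions of the forms overlapped between the diets.

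Library totals in the table ran from 497286 to 743187 counts, so the limit that a count of 0 allows (3 counts) was 4.04 to 6.03 CPM (counts scaled to a common library size) before adjustment. The gonadal miRNA miR-202 (3 sequences) summed to 40040, 43817 and 56222 CPM in A libraries, against 66467, 62997 and 44239 CPM in C libraries. It was abundant in every library, and the groups overlapped. miRNAs of the germ or ciliated cell list (miR-34b, miR-34c and miR-449, 11 sequences) summed to between 1205 and 1377 CPM in A libraries, against between 819 and 990 CPM in C libraries. Smooth muscle miRNAs (miR-143 and miR-145) summed to between 60732 and 108301 CPM in A libraries and between 62375 and 110794 CPM in C libraries, highest in replicate 2 of each diet. The white cell list summed to between 599 and 1520 CPM over the 6 libraries, and the red cell, striated muscle and liver lists each to between 118 and 283 CPM.

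The share of let-7 among all counts was 11.9%, 10.7% and 12.1% in A libraries, against 14.5%, 10.9% and 12.9% in C libraries. These shares overlapped. On the scale of the test, in which library sizes were adjusted by the trimmed mean of M-values (TMM), the summed 5p level was 114847, 117349 and 112944 CPM in A libraries, against 128649, 124757 and 124695 CPM in C libraries. On this scale every A library lay below every C library, with means of 115047 ± 2209 CPM in A libraries and 126034 ± 2266 CPM in C libraries (SD, n = 3 each; log2 ratio -0.13). The summed 3p level was 598, 628 and 665 CPM in A libraries, against 696, 749 and 784 CPM in C libraries, again without overlap (log2 ratio of the means -0.24). The unscaled 3p share was 0.0619%, 0.0567% and 0.0706% of all counts in A libraries, against 0.0782%, 0.0653% and 0.0807% in C libraries, which overlapped. The separation of both sums was thus seen after TMM scaling and not in the unscaled shares, and the sums were given no test. Scaled by the authors' own factor for each library, both sums also separated, with log2 ratios of the means of -0.16 (5p) and -0.27 (3p). As a share of the valid reads left after the study's filtering, let-7 of both arms overlapped between the diets. These shares were 1.13%, 1.31% and 1.17% in A libraries, against 1.25%, 1.54% and 1.28% in C libraries. As given above, miR-202 in A replicates 1 and 2 lay below every C library and in A replicate 3 above C replicate 3, and the germ or ciliated cell list was higher in every A library than in every C library. The part of these lists in the result was not tested. In a whole testis, fewer cells of a type and less RNA per cell cannot be told apart.

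**Figure D1:**
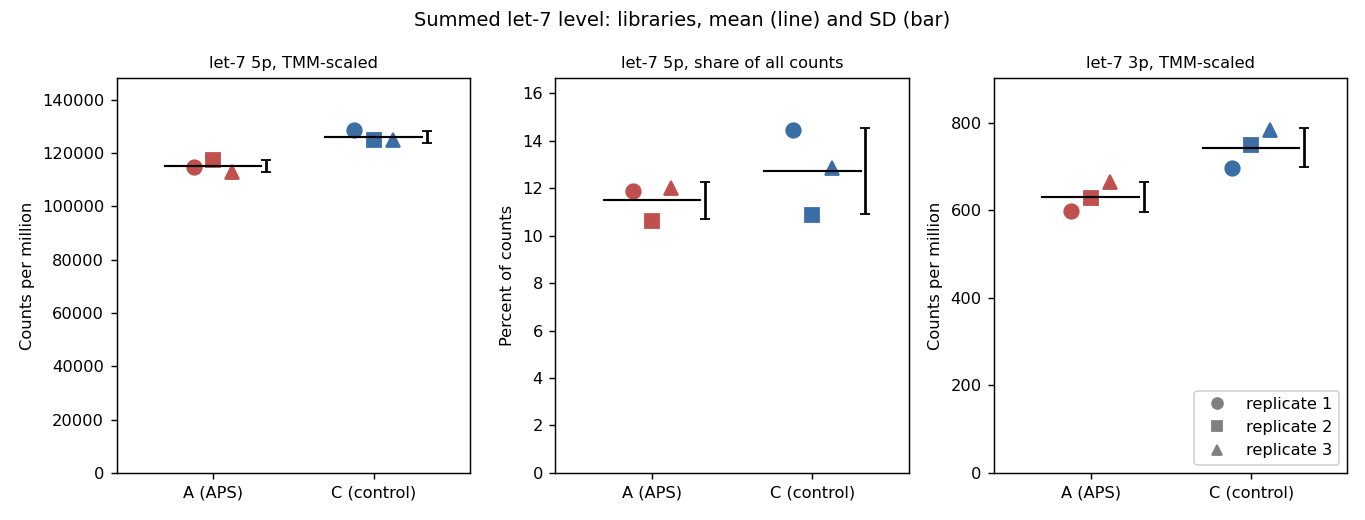
Summed let-7 level in each library (points, A left of C) with the mean as a line and 1 SD as a bar. The 5p sum separated the diets after TMM scaling (112944 to 117349 CPM in A libraries, 124695 to 128649 CPM in C libraries), whereas the share of all counts overlapped.

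Of the 25 sequences, 18 passed the filter on low values, which asked that the authors' normalized values average 1 or more in A or in C. The other 7 had fewer than 10 counts each over the 6 libraries. They included both let-7b sequences, with 1 and 0.442 counts, hsa-let-7d-5p_R+1 with 2 counts, and the let-7g-5p name described above. No level of let-7b could therefore be told from 0 at this depth.

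edgeR's quasi-likelihood test, adjusted by Benjamini-Hochberg over all 774 sequences tested, called none of the 18 let-7 sequences, and none of the 774 (0%) at an adjusted p under 0.05. DESeq2 and limma on the same sequences also called none. At an unadjusted p under 0.05 edgeR had 46 sequences, 27 lower in A (3.49% of those tested) and 19 higher in A (2.45%), DESeq2 had 23 and limma on log2 normalized values had 42. One let-7 sequence, gga-let-7i_R+1, was among those lower in A, and none was among those higher. Of the 18, 14 had a log2 fold change (A over C) below 0, against 54.9% of all sequences tested. Their median was -0.14, against -0.083 for all sequences tested. Every A library lay below every C library for 3 of the 18, against 7.11% of all tested, and above for 2, against 5.94%. The smallest adjusted p among the 18 was 0.690 by edgeR.

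**Figure D2:**
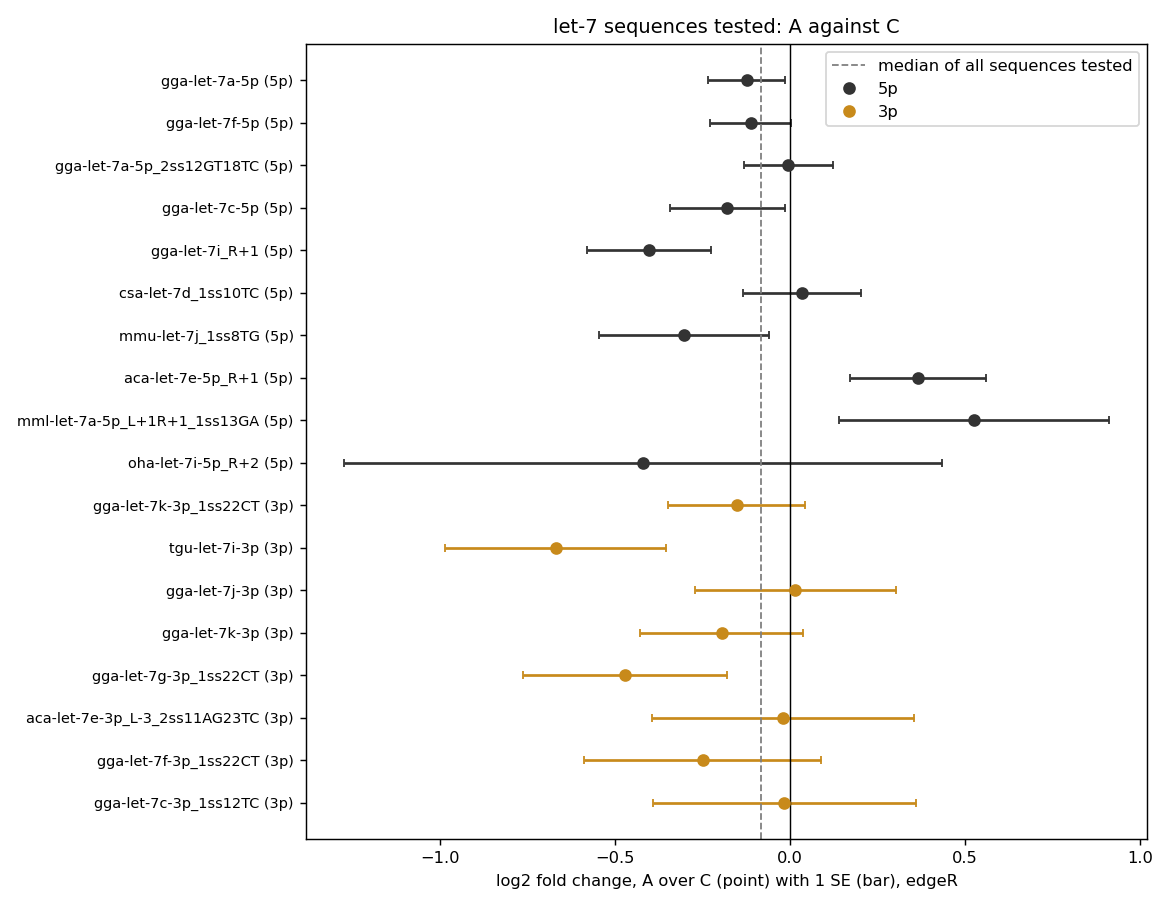
The log2 fold change, A over C, of the 18 let-7 sequences tested, with 1 SE as a bar and the median of all 774 sequences as a dashed line. The values ran between -0.67 (tgu-let-7i-3p) and 0.53 (mml-let-7a-5p_L+1R+1_1ss13GA), and none passed the adjusted threshold.

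For gga-let-7a, the sequence gga-let-7a-5p was the most abundant let-7 sequence and the 7th most abundant of all tested. Its level was 37833, 38725 and 36455 CPM in A libraries, against 42402, 41808 and 38958 CPM in C libraries. On this TMM scale the groups did not overlap, although A replicate 2 and C replicate 3 were close. As unscaled shares of all counts, and scaled by the authors' own factors, the groups overlapped. The log2 fold change was -0.12 ± 0.11 (SE, n = 3 each), with an adjusted p of 0.806 by edgeR.

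For gga-let-7f, the sequence gga-let-7f-5p had 36230, 34265 and 39000 CPM in A libraries, against 41275, 37375 and 39707 CPM in C libraries. A replicate 3 lay within the range of the C libraries. The log2 fold change was -0.11 ± 0.12, with an adjusted p of 0.815 by edgeR.

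For gga-let-7g, the 5p sequence that matched it, gga-let-7a-5p_2ss12GT18TC, had 17491, 15260 and 16930 CPM in A libraries, against 17018, 15321 and 17542 CPM in C libraries. The libraries of both diets covered nearly one range. The log2 fold change was -0.0058 ± 0.13.

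For gga-let-7c, the sequence gga-let-7c-5p had 14800, 17106 and 11864 CPM in A libraries, against 15654, 18721 and 15199 CPM in C libraries. Within each diet replicate 2 was highest, and the groups overlapped (log2 fold change -0.18 ± 0.16). This value was -0.34 without A replicate 2, -0.051 without A replicate 3 and -0.091 without C replicate 2. In the RefSeq order of chicken miRNA genes (assembly GRCg7b) let-7c lies between miR-99a and miR-125b. gga-miR-99a-5p_R-1 was also highest in replicate 2 of each diet, with 101781, 141686 and 99978 CPM in A libraries, against 86641, 164488 and 115479 CPM in C libraries. The smooth muscle list was highest in the same libraries, and its part in these levels was not tested.

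Among the 5 abundant sequences, the log2 fold change was farthest from 0 for gga-let-7i. gga-let-7i_R+1 had 6936, 10452 and 7337 CPM in A libraries, against 10875, 10134 and 11720 CPM in C libraries. A replicates 1 and 3 were below every C library and A replicate 2 was within their range. The A mean was 8242 ± 1924 CPM and the C mean 10910 ± 794 CPM (SD, n = 3 each), a log2 fold change of -0.40 ± 0.18 (SE) with an adjusted p of 0.690 by edgeR. With any library other than A replicate 2 left out, the log2 fold change lay between -0.46 and -0.29 and the sequence was no longer under an unadjusted p of 0.05.

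A replicate 2 was also the highest A library for the next 2 let-7i sequences. mmu-let-7j_1ss8TG, the longer form of let-7i, had 315, 456 and 271 CPM in A libraries, against 431, 358 and 497 CPM in C libraries (log2 fold change -0.30 ± 0.24). It made up 3.41% to 4.35% of the let-7i 5p counts over the 6 libraries. tgu-let-7i-3p, the passenger strand under its zebra finch name, had 62.0, 142.8 and 84.8 CPM in A libraries, against 141.4, 142.2 and 178.6 CPM in C libraries. Its log2 fold change was -0.67 ± 0.32, the lowest of the family, with an adjusted p of 0.690 by edgeR. These let-7i sequences come from the same 6 libraries and are not separate evidence. Their size depended on single libraries. The log2 fold change of gga-let-7i_R+1 was -0.64 without A replicate 2. That of mmu-let-7j_1ss8TG was -0.58 without A replicate 2, but -0.15 without A replicate 3 and -0.19 without C replicate 3. That of tgu-let-7i-3p was -1.10 without A replicate 2, but -0.43 without A replicate 1.

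**Figure D3:**
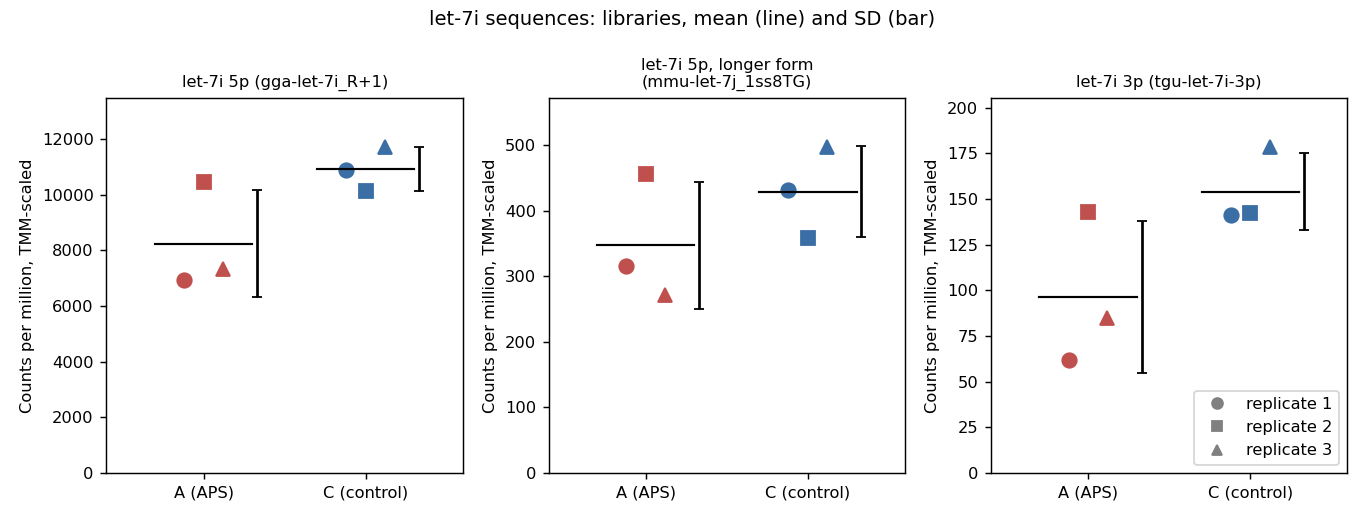
Level of 3 let-7i sequences in each library (points shaped by replicate, A left of C), with the mean as a line and 1 SD as a bar. A replicate 2 (square) lay at the level of the C libraries for each sequence, and A replicates 1 and 3 lay lower.

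csa-let-7d_1ss10TC had 819, 672 and 756 CPM in A libraries, against 709, 711 and 774 CPM in C libraries. Its log2 fold change was 0.035 ± 0.17. aca-let-7e-5p_R+1, which is also listed under a let-7f name, had 390, 390 and 314 CPM in A libraries, against 268, 311 and 270 CPM in C libraries. Every A library was above every C library, although A replicate 3 and C replicate 2 were close. The log2 fold change was 0.37 ± 0.19 with an adjusted p of 0.690 by edgeR. mml-let-7a-5p_L+1R+1_1ss13GA, the form of let-7f with an added base at each end, had 21.8, 16.9 and 13.4 CPM in A libraries, against 12.5, 12.4 and 10.9 CPM in C libraries. It rested on 53.7 counts in all (log2 fold change 0.53 ± 0.39, and 0.34 without A replicate 1). oha-let-7i-5p_R+2 had 21.5 counts in all, and its log2 fold change of -0.42 had an SE of 0.85.

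**Figure D4:**
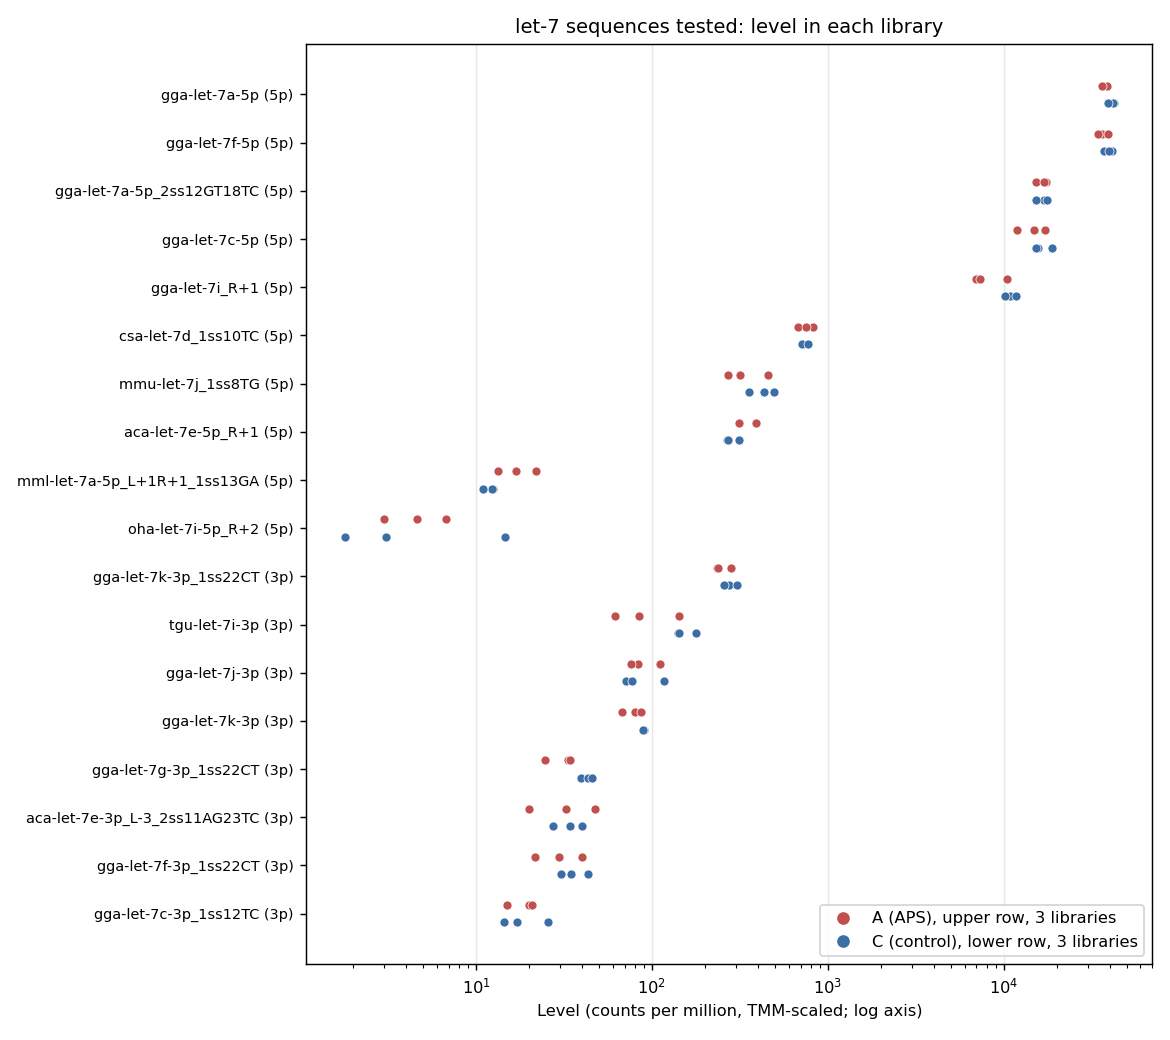
Level of the 18 let-7 sequences tested in each library, on a log axis (A points above C points). The levels ran from a highest value of 42402 CPM for gga-let-7a-5p to a lowest of 1.79 CPM for oha-let-7i-5p_R+2, and the diets overlapped for 13 of the 18.

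The 3p strands held 2517 counts, between 0.518% and 0.624% of let-7 counts per library, and those named let-7k held 50.8% of them. No 3p sequence was named let-7a, and no 3p strand of let-7a could be rebuilt. Whether let-7a hairpins gave some of these reads was not tested. Of the 8 3p sequences tested, 7 had a log2 fold change below 0, against 54.9% of all sequences tested. The median over the 8 was -0.17, against -0.083 for all sequences tested. For gga-let-7k, the form gga-let-7k-3p_1ss22CT had 235, 236 and 283 CPM in A libraries, against 276, 257 and 306 CPM in C libraries (log2 fold change -0.15 ± 0.20, with -0.25 without A replicate 3 and -0.082 without C replicate 3). The unmodified gga-let-7k-3p had 80.4, 67.6 and 86.3 CPM in A libraries, against 89.5, 89.6 and 89.3 CPM in C libraries, and the groups did not overlap (-0.20 ± 0.23). These levels rested on few counts: 47.5, 43.5 and 57.5 in A libraries, against 50, 58 and 49 in C libraries. A replicate 3 and C replicate 3 were close. gga-let-7g-3p_1ss22CT had 33.5, 24.6 and 34.2 CPM in A libraries, against 39.4, 43.3 and 45.6 CPM in C libraries. The groups did not overlap, the log2 fold change was -0.47 ± 0.29, and the adjusted p was 0.690 by edgeR. gga-let-7j-3p, gga-let-7c-3p_1ss12TC and aca-let-7e-3p_L-3_2ss11AG23TC had log2 fold changes of 0.014 ± 0.29, -0.017 ± 0.38 and -0.020 ± 0.37, in that order. gga-let-7f-3p_1ss22CT had -0.25 ± 0.34, and -0.49 without A replicate 1, -0.083 without A replicate 2 and -0.12 without C replicate 2.

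The arms of let-7g could be compared once reads were given the letter they matched. The 3p share of let-7g was 0.191%, 0.161% and 0.202% in A libraries, against 0.231%, 0.282% and 0.259% in C libraries. The groups did not overlap (two-sided exact permutation p = 0.1, the smallest that 3 against 3 allow, and 0.6 after adjustment over 6 letters). These shares rested on few 3p counts: 20, 16 and 23 in A libraries, against 22, 28 and 25 in C libraries. For let-7i the 3p share was 0.847%, 1.29% and 1.12% in A libraries, against 1.24%, 1.34% and 1.44% in C libraries.

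The make-up of the 5p counts overlapped between the diets for 7 of 8 letters. Lettered by match, let-7a was 32.7% ± 0.40 in A libraries and 32.6% ± 1.18 in C libraries, and let-7f was 31.8% ± 2.67 in A libraries and 31.3% ± 1.16 in C libraries (SD, n = 3 each). let-7g was 14.4% ± 1.22 in A libraries and 13.2% ± 0.89 in C libraries. let-7c was 12.7% ± 2.05 in A libraries and 13.1% ± 1.63 in C libraries. let-7i was 7.45% ± 1.61 in A libraries and 9.004% ± 0.72 in C libraries. Sequences that matched no rebuilt strand kept the letter of their name, among them aca-let-7e-5p_R+1, the only 5p sequence put under let-7e. No chicken name in the family carried this letter. The let-7e share was 0.317% ± 0.034 in A libraries and 0.225% ± 0.021 in C libraries. This share, of 1 sequence named for another species, was the one whose groups did not overlap (two-sided exact permutation p = 0.1, adjusted 0.48). Lettered by name, let-7a was 47.2% ± 1.09 in A libraries and 45.8% ± 0.44 in C libraries, because the let-7g reads were then counted as let-7a. Reads under unmodified names made up 77.0% ± 0.31 of let-7 counts in A libraries and 76.8% ± 1.62 in C libraries (two-sided exact permutation p = 0.8).

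**Figure D5:**
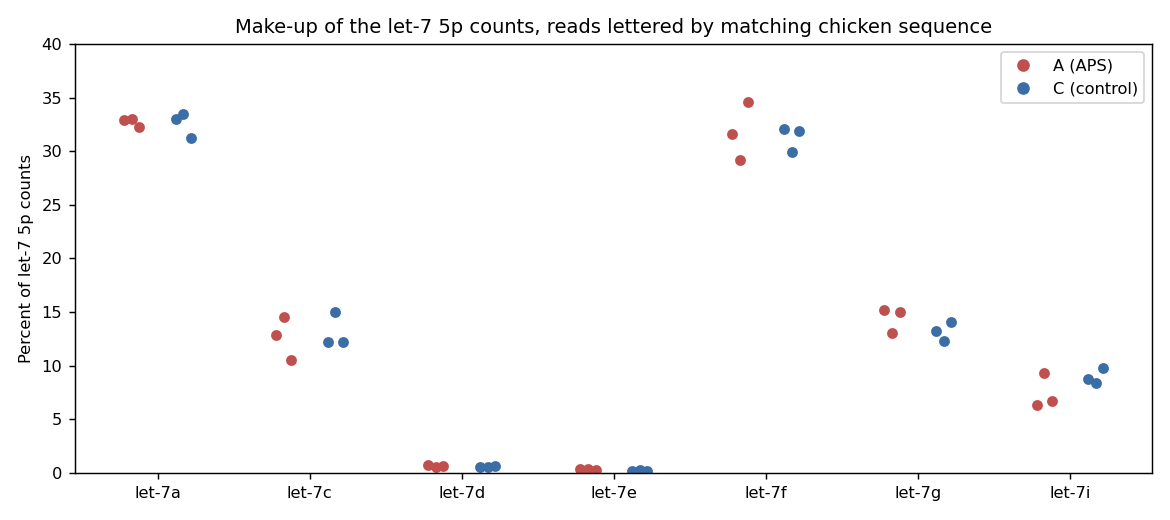
Share of each letter among the let-7 5p counts in each library (A left of C). Reads were lettered by the chicken sequence they match, or by name where none matched. let-7a and let-7f overlapped between the diets, and let-7i had its lowest values in A replicates 1 and 3.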

How the data were processed

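The table used here lists miRNA names with their values in each of 6 testis libraries. The authors made it with ACGT101-miR (version 4.2 in the labels), filtering reads and aligning them to miRBase precursors with end changes and a mismatch allowed. For the chicken genome, the build is not given in the sources. The deposited raw columns hold expected counts, in which lines of one sequence hold equal, often fractional values. The authors also deposited a normalized signal (each raw value multiplied by a factor of its library), together with group means, fold changes and an unadjusted p-value per line, none of which was used beyond the single-library columns.

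Lines of one sequence were summed and rounded. Sequences whose normalized values averaged 1 or more in A or in C were kept (774, with 377 below). The quasi-likelihood test of edgeR 4.0.16 with TMM scaling was run in R 4.3.3 on A against C, with limma 3.58.1 and DESeq2 1.42.0 as alternatives. Shares were compared by two-sided exact permutation with Python 3.11.15, pandas 2.3.3, numpy 2.4.6 and scipy 1.17.1, and figures were drawn with matplotlib 3.10.9. Standard errors and p-values of edgeR rest on the variation between the 3 birds of a diet, moderated over all 774 sequences. They are thus not the spread of 1 sequence alone. The exact permutation p-values place a difference among the 20 splits of 3 against 3 libraries. The limit for a count of 0 (3 counts) covers counting error only, and the PCR reads carried no molecular tags. On simulated counts of the 774 sequences, 4.48% of those changed by 0.585 on the log2 scale had an adjusted p under 0.05. The share was 13.4% for a change of 1 and 45.5% for a change of 2. These shares are over all simulated sequences so changed and were not worked out for let-7 alone. Values are given for every library for the main sequence of each letter and arm, for members at an unadjusted p under 0.05, for gga-let-7g-3p and for sequences carrying several letters. The members and lists were chosen with earlier results of these data known. Lettering by matching sequence was chosen after the data were seen.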

Additional observations from a re-analysis of the deposited data

How the results depend on the processing

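No let-7 sequence had an adjusted p under 0.05 in any alternative run. Lower in A were 10 of 18 let-7 sequences under quantile normalization, 12 to 16 of 18 under the others that tested 18, and 14 to 17 where the number tested changed. The median of all sequences was -0.083 in the test reported and 0.019 under quantile normalization, where 20 sequences were lower and 38 higher in A at an unadjusted p under 0.05. Sequences at that p numbered 23 by the DESeq2 Wald test, 84 without a filter (12 sequences then had an adjusted p under 0.05), 20 with a mean count of at least 10, and between 30 and 61 when 1 library was left out. let-7 sequences at that p numbered 0 with DESeq2 size factors, the valid reads, the Wald test and limma on log2 values, 2 under quantile normalization, without a filter and with the replicate block, and 0 to 3 when 1 library was left out (3 without A replicate 2, 0 without any other library). Over libraries of equal replicate number, deviations from the diet mean correlated at 0.242, 0.112 and -0.230. Other pairs ran between -0.341 and 0.178. With 3 libraries per diet these values cannot decide whether the replicate numbers pair the libraries. With the replicate block 60 sequences had an unadjusted p under 0.05, tgu-let-7i-3p among them (log2 fold change -0.73).

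The summed 5p level (log2 -0.13) was -0.17 with the valid reads, -0.081 under quantile normalization and -0.16 with a mean count of at least 10, and between -0.18 and -0.12 when 1 library was left out. Signs turned for small differences and for oha-let-7i-5p_R+2, a sequence with 21.5 counts in all. Under quantile normalization gga-let-7a-5p_2ss12GT18TC was 0.091, aca-let-7e-3p_L-3_2ss11AG23TC 0.036, gga-let-7c-3p_1ss12TC 0.081 and oha-let-7i-5p_R+2 0.35. csa-let-7d_1ss10TC was -0.011 with the valid reads and -0.023 with lines summed per name. gga-let-7j-3p was -0.0079 with DESeq2 size factors, -0.0085 by the Wald test, -0.021 with the authors' constants, -0.017 with a mean count of at least 10, -0.062 with the valid reads and -0.040 per name. With 1 library left out, log2 values ran between -0.077 and 0.034 for gga-let-7a-5p_2ss12GT18TC, -0.034 and 0.078 for csa-let-7d_1ss10TC, -0.85 and 0.88 for oha-let-7i-5p_R+2, -0.16 and 0.26 for gga-let-7j-3p, -0.37 and 0.23 for aca-let-7e-3p_L-3_2ss11AG23TC, and -0.18 and 0.25 for gga-let-7c-3p_1ss12TC. Differences in share, in percentage points, ran between -1.43 and 0.611 for let-7c, -0.922 and 1.74 for let-7f, -0.0074 and 0.0401 for the 3p share of let-7c, -0.0238 and 0.0029 for that of let-7f, and -0.695 and 0.907 for unmodified names. The cause was not tested.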

Other observations

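Outside the family, 2 other sequences held GAGGTAG at bases 2 to 8. PC-5p-26228_169, a predicted miRNA named by the authors' program, had 911 counts in all: 147, 112 and 132 in A libraries, against 157, 228 and 135 in C libraries. The other, a miR-6134 variant under a macaque name, had 1 count. No sequence named miR-98 was in the table used here.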
